A study of Mus musculus with 16 samples.

Results

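The inflammasome is a protein complex that activates the protease caspase-1, and 10 mouse genes of this complex, its protease and the interleukin-1 cytokines it acts on were followed in white adipose tissue. They were the sensor genes Naip2, Nlrp3 and Nlrc4, the adaptor gene Pycard, the protease genes Casp1 and Casp4, the pore gene Gsdmd, the cytokine genes Il1b and Il18, and Il1rn, which encodes the interleukin-1 receptor antagonist. The members were all probe sets that the array's probe table assigns to 1 of these symbols and to no other gene. This gave 13 probe sets of 9 genes, out of 45037 probe sets and 18193 genes on the array. Nlrc4 had no probe set of its own and was not analysed here. Of the 9 genes, 7 passed a filter that kept genes reaching 4 on the log2 scale in 4 arrays or more, while Nlrp3 and Il1b did not.

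The tissue came from C57BL6/J mice in 4 groups of 4 arrays, with 1 sample of total RNA per array. In the knockout groups (FABP4-Cre), the labels give an adipocyte-specific deletion of Sirt1 by a Cre recombinase under the promoter of fatty acid binding protein 4, a gene that macrophages also express. Knockouts fed a high fat diet (high-fat knockouts) were set against wild types without Cre on that diet (high-fat wild types), and knockouts fed a low fat diet (low-fat knockouts) against wild types on it (low-fat wild types). Mice began the diet at 4 weeks of age, stayed on it for 8 weeks and were dissected at 12 weeks. A control with Cre and intact Sirt1 was not among the groups, so effects of the transgene and of the deletion cannot be told apart. Which fat depot was taken is not stated, and the labels do not say whether replicates were separate mice, so a p-value here speaks of the spread among these samples alone.

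As background, inflammasome sensors detect microbial products or cell stress and, mostly through the adaptor ASC that Pycard encodes, bring caspase-1 precursors together so that they activate. Caspase-1 cuts the precursors of interleukin-1 beta and interleukin-18 and the pore protein gasdermin D, through which the mature cytokines leave the cell. In obese adipose tissue the pathway is known chiefly from macrophages. The study's title concerns cleavage of the SIRT1 protein under a high fat diet, and caspase-1 is the protease linked to that cleavage. The arrays measure RNA and show neither protease activity nor cleaved proteins.

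Values are log2 expression per probe set, and the array medians lay between 4.34 and 4.46. Arrays of the same group correlated with r between 0.987 and 0.996 across probe sets. The signal of Sirt1 differed between knockout and wild type by -0.22 on the high fat diet (adjusted p = 0.448) and by -0.19 on the low fat diet (adjusted p = 0.498). The position of its probe set relative to the deleted part is not stated, so it checks nothing about the labels. Transcripts of other tissues stood out in some arrays. The skeletal muscle gene Tnnt3 reached a log2 of 8 or more in 5 arrays, namely high-fat knockout replicate 4, high-fat wild-type replicate 3, low-fat knockout replicate 2 and low-fat wild-type replicates 3 and 4. The urothelial gene Upk1a stood at 11.71 in high-fat wild-type replicate 4. For the members tested, results that change without the arrays with Tnnt3 are given with both values. For genes outside the members, only the number of calls among all genes was followed in that setting. The 4 arrays in each group limit the precision of every value.

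The sequences of 4 promoters are given because the results turn on 2 pairs of genes. Pycard and Il1rn were higher in all 4 comparisons, while of the neighbouring genes Casp1 and Casp4, with no coding gene between them, Casp1 passed in 3 comparisons and no comparison of Casp4 passed. RefSeq promoter windows (GRCm38.p6) were found for 9 of the 10 genes, in 13 windows. The 250 bases before the first start site of each gene are printed 5′ to 3′ along the gene's strand, with capitals marking a matched motif.
Pycard promoter, chr7:127993868-127994117, minus strand: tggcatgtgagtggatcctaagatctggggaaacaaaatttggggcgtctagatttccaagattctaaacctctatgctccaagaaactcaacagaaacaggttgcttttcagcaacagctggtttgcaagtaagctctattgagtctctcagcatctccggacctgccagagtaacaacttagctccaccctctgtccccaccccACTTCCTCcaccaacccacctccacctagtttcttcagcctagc
Il1rn promoter, chr2:24336610-24336859, plus strand: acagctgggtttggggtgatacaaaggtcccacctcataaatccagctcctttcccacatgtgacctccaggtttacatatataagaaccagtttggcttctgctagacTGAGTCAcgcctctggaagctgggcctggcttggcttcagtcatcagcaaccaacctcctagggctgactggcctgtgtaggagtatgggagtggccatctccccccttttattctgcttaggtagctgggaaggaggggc
Casp1 promoter, chr9:5298267-5298516, plus strand: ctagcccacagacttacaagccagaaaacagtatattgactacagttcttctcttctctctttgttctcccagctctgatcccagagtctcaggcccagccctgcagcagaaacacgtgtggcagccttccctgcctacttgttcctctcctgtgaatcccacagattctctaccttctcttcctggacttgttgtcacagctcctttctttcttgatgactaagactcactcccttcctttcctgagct
Casp4 promoter, chr9:5308599-5308848, plus strand: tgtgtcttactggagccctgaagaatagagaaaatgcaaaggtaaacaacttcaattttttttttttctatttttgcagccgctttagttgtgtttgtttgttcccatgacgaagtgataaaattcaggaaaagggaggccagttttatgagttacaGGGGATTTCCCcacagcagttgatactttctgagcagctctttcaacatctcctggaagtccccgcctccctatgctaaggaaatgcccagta
Both strands of each window were searched for 4 motifs, and positions count back from the start site. The capitals in Pycard are a PU.1 motif (GAGGAAGT, read on the opposite strand as ACTTCCTC) at -44 to -37, which 2.44% of 32851 mouse promoter windows of this length hold. The capitals in Il1rn are an AP-1 motif (TGANTCA) at -141 to -135, present in 6.75% of windows, and the other 2 windows of Il1rn held none of the 4 motifs. The capitals in Casp4 are 2 overlapping matches to the kappa-B motif between -93 and -83, present in 3.9% of windows, and its other, overlapping window holds the same letters. A kappa-B match was also found in 1 of the 2 windows of Nlrp3. The interferon-stimulated response element (GAAA, any 2 bases, GAAA), found in 2.98% of windows, was in no window of a member. The windows of Casp1, Naip2, Nlrc4, Il1b and Il18 held none of the 4 motifs. The kappa-B pattern was widened after the sequences had been read. A match describes letters in the window and nothing more.

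Across the 4 groups, Il1rn, Pycard, Naip2 and Casp1 followed the same order of group means. All were highest in high-fat knockouts, next in high-fat wild types, then in low-fat knockouts, and lowest in low-fat wild types. For each of the 4 genes the arrays of high-fat wild types and low-fat knockouts overlapped, and this pair was not tested. Gsdmd was higher in high-fat knockouts than in each of the groups it was tested against. Casp4 stayed near a log2 of 8.9 in all groups, and Il18 fell with the high fat diet in knockout fat. The values of all arrays are shown in the plot by group.

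**Figure D1:**
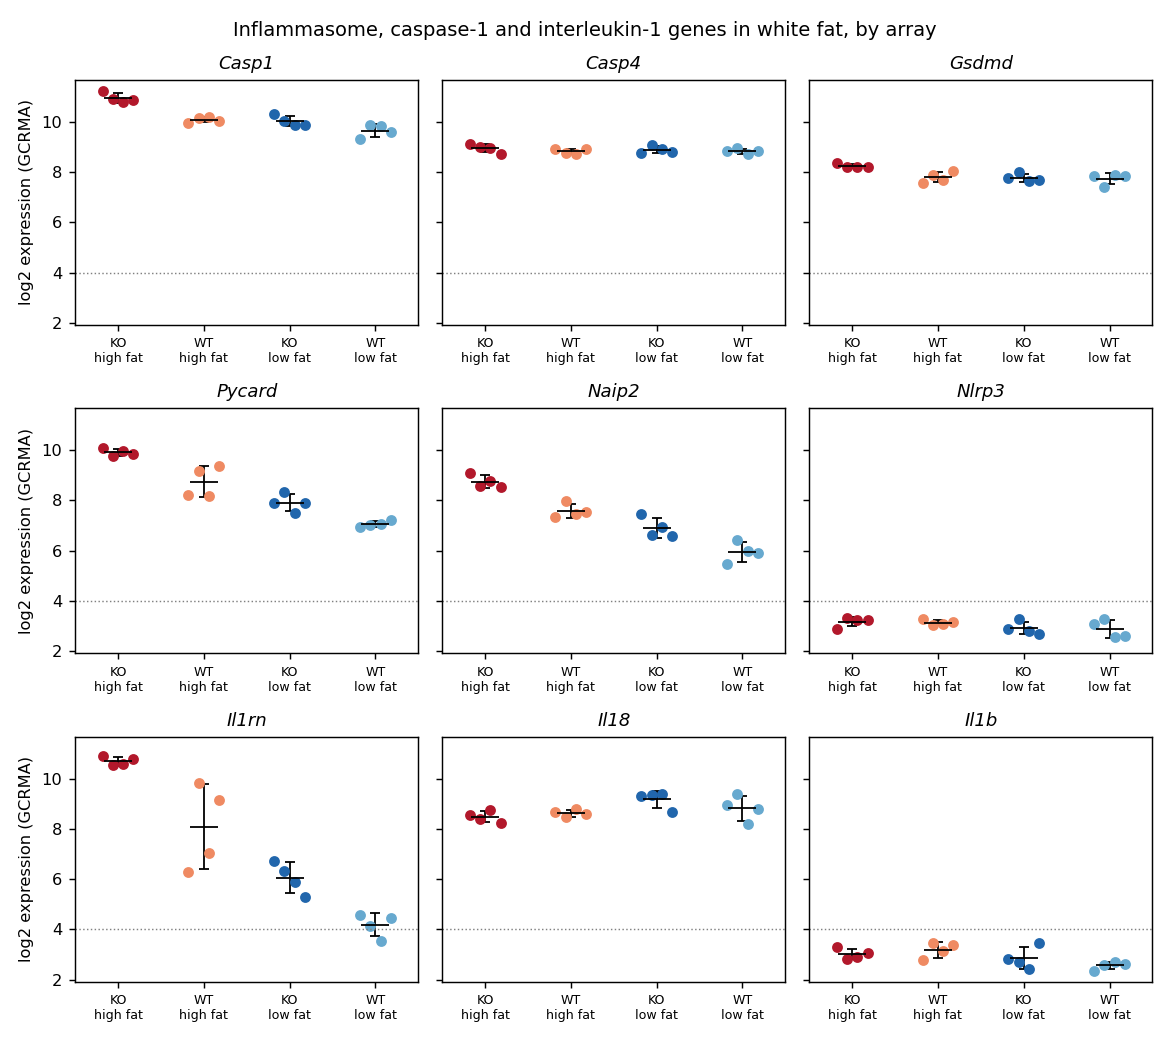
Log2 expression (GCRMA) of the 9 genes with a probe set, by array. KO is the FABP4-Cre knockout and WT the wild type; each point is 1 array, the horizontal line is the group mean and the bars are ± 1 SD (n = 4), and the dotted line is the filter at a log2 of 4. Il1rn falls in steps from left to right, Casp4 is level, and Nlrp3 and Il1b lie under the dotted line in every array.

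Naip2 encodes a sensor that, in mice, binds the rod protein of bacterial secretion systems and acts through NLRC4. Its log2 values were 9.10, 8.57, 8.77 and 8.52 in high-fat knockouts and 7.35, 7.97, 7.45 and 7.53 in high-fat wild types. In low-fat knockouts they were 7.45, 6.62, 6.95 and 6.59, against 5.49, 6.44, 5.98 and 5.92 in low-fat wild types. Every array of a high fat group lay above every array of the low fat group of its genotype, and every knockout array above every wild-type array on the same diet. The high fat diet raised Naip2 by 1.84 in knockout fat (SE 0.22, 3.57-fold, limma adjusted p = 2.16e-05) and by 1.61 in wild-type fat (SE 0.22, 3.06-fold, adjusted p = 5.81e-05). Knockout exceeded wild type by 1.17 on the high fat diet (SE 0.22, adjusted p = 0.00262) and by 0.94 on the low fat diet (SE 0.22, adjusted p = 0.0079). Without the 5 arrays with Tnnt3 the difference on the low fat diet was 1.03 with an adjusted p of 0.0799. Naip2 lies beside the related genes Naip5 and Naip6 in the genome. Whether its probe set also detects their transcripts was not checked, so which gene gave the value is uncertain.

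Nlrp3, the sensor best known from obese fat, did not reach the filter in any array and was not tested. Its values were 2.90, 3.31, 3.27 and 3.24 in high-fat knockouts and 3.29, 3.03, 3.07 and 3.18 in high-fat wild types. They ran from 2.70 to 3.28 in low-fat knockouts and from 2.56 to 3.28 in low-fat wild types. The 4 groups overlapped, and values this low on the array depend on the background correction. This says nothing about whether the gene was expressed below what its probe set can measure.

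Pycard encodes ASC, the adaptor that joins sensors to caspase-1. Its brightest probe set read 10.10, 9.76, 9.95 and 9.85 in high-fat knockouts, against 8.23, 9.15, 8.18 and 9.38 in wild types on that diet. On the low fat diet it read 7.89, 8.35, 7.50 and 7.91 in knockout fat, against 6.93, 7.03, 7.05 and 7.21 in wild-type fat. No array of a group overlapped with the group it was tested against, and the high-fat wild-type arrays split into a higher pair, replicates 2 and 4, and a lower pair. With the high fat diet Pycard rose by 2.00 in knockout fat (SE 0.24, 4.00-fold, adjusted p = 1.92e-05) and by 1.68 in wild-type fat (SE 0.24, 3.21-fold, adjusted p = 7.24e-05). Knockout was higher than wild type by 1.18 on the high fat diet (SE 0.24, adjusted p = 0.00377) and by 0.86 on the low fat diet (SE 0.24, adjusted p = 0.0197). A dimmer probe set of Pycard gave the same directions at smaller size. Its changes with diet passed in knockout fat (0.84, adjusted p = 0.00144) and in wild-type fat (0.60, adjusted p = 0.0105), in a fit over all 25560 probe sets, of which 27.7% passed for diet in knockout and 35.4% in wild-type fat. Its differences between knockout and wild type did not (0.49, adjusted p = 0.0647 on the high fat diet, and 0.25, adjusted p = 0.321 on the low fat diet), beside 12.5% and 18.1% of probe sets that did. Its low fat values lay around the filter, between 3.72 and 4.33. Another, 1446926_at, lay between 2.88 and 4.21 and was not tested. The call on the low fat diet also ended without low-fat knockout replicate 2 (adjusted p = 0.0711), without low-fat wild-type replicate 1 (0.0549), with array weights (0.0583), with the mean of the probe sets (0.0659) and without the arrays with Tnnt3 (0.79, adjusted p = 0.13).

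Casp1 encodes caspase-1 itself. Its values were 11.22, 10.91, 10.77 and 10.86 in high-fat knockouts, against 9.96, 10.13, 10.17 and 10.01 in high-fat wild types. Low-fat values were 10.30, 10.03, 9.88 and 9.85 in knockout fat, against 9.31, 9.87, 9.82 and 9.57 in wild-type fat. The 4 high-fat knockout arrays stood above all other arrays, and the 2 low fat groups overlapped. On the high fat diet Casp1 was higher in knockout than in wild-type fat by 0.87 (SE 0.14, 1.83-fold, adjusted p = 0.001). The high fat diet raised it by 0.93 in knockout fat (SE 0.14, 1.90-fold, adjusted p = 0.000171) and by 0.43 in wild-type fat (SE 0.14, 1.34-fold, adjusted p = 0.0292). On the low fat diet the difference between knockout and wild type was 0.37 (95% confidence interval 0.07 to 0.68, adjusted p = 0.0798), which did not pass. That difference passed with array weights (0.44, adjusted p = 0.0347) and without low-fat wild-type replicate 2 (0.45, adjusted p = 0.0382). The rise in wild-type fat did not pass without high-fat wild-type replicate 2 (adjusted p = 0.0701) or 3 (0.0761), without low-fat wild-type replicate 1 (0.1) or 4 (0.0638), without the arrays with Tnnt3 (0.44, adjusted p = 0.168), with centred arrays (0.34, adjusted p = 0.101) or with only the arrays compared (0.0594).

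Casp4, whose mouse product is also called caspase-11 and is activated by bacterial lipopolysaccharide inside cells, lies next to Casp1 in the genome. Its values were 9.11, 8.99, 8.95 and 8.72 in high-fat knockouts and 8.91, 8.74, 8.72 and 8.91 in high-fat wild types. Low-fat values were 8.76, 9.08, 8.93 and 8.79 in knockout fat, against 8.83, 8.94, 8.70 and 8.84 in wild-type fat. All groups overlapped. No comparison of Casp4 passed, and its 95% confidence intervals bound the changes. They ran from -0.18 to 0.29 for diet in knockout fat and from -0.24 to 0.23 for diet in wild-type fat. Between knockout and wild type they ran from -0.11 to 0.36 on the high fat diet and from -0.17 to 0.29 on the low fat diet. The diet interval of Casp1 in knockout fat, 0.62 to 1.23, lay wholly above that of Casp4.

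Gsdmd encodes gasdermin D, which forms pores in the cell membrane once cut. It read 8.37, 8.19, 8.21 and 8.19 in high-fat knockouts, against 7.57, 7.87, 7.69 and 8.03 in wild types on that diet. It read 7.76, 7.98, 7.63 and 7.69 in low-fat knockouts, against 7.82, 7.40, 7.88 and 7.82 in low-fat wild types. The high-fat knockout arrays lay above all other arrays, and the other 3 groups overlapped. Gsdmd rose with the high fat diet in knockout fat by 0.47 (SE 0.13, 1.39-fold, adjusted p = 0.0128), and was higher in high-fat knockouts than in high-fat wild types by 0.45 (SE 0.13, 1.36-fold, adjusted p = 0.0304). In wild-type fat its diet difference was 0.06 (95% confidence interval -0.22 to 0.34). Knockout and wild type on the low fat diet differed by 0.03 (-0.25 to 0.31). The call on the high fat diet ended without high-fat knockout replicate 1 (adjusted p = 0.0938), 3 (0.0563) or 4 (0.0541), without high-fat wild-type replicate 1 (0.0935) or 3 (0.0878) and without the arrays with Tnnt3 (0.43, adjusted p = 0.144).

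Of the cytokine genes, Il1b did not pass the filter and Il18 fell in 1 comparison. Il1b, which encodes interleukin-1 beta, lay between 2.37 and 3.46 in all arrays and was not tested. Its group means ± SD were 3.03 ± 0.21 in high-fat knockouts and 3.19 ± 0.30 in high-fat wild types, and 2.85 ± 0.43 in low-fat knockouts and 2.58 ± 0.15 in low-fat wild types (n = 4 each). With no filter on low values, the diet difference of Il1b in wild-type fat, 0.61, had an adjusted p of 0.03, on values that all lay under a log2 of 4.

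Il18 encodes interleukin-18. Its values were 8.55, 8.40, 8.76 and 8.23 in high-fat knockouts, against 9.31, 9.34, 9.37 and 8.66 in low-fat knockouts. In wild-type fat they were 8.68, 8.45, 8.78 and 8.57 on the high fat diet, against 8.94, 9.37, 8.18 and 8.80 on the low fat diet. Low-fat knockout replicate 4 lay within the range of the high-fat knockout arrays, while the other 3 replicates lay above that range. In knockout fat Il18 fell by 0.68 with the high fat diet (SE 0.22, 1.60-fold lower, adjusted p = 0.0262). In wild-type fat the diet difference was -0.20 (95% confidence interval -0.66 to 0.26, adjusted p = 0.494). Knockout differed from wild type by -0.14 on the high fat diet (-0.59 to 0.32) and by 0.34 on the low fat diet (-0.11 to 0.80), and neither passed. The fall in knockout fat did not pass without high-fat knockout replicate 2 (adjusted p = 0.0575) or 4 (0.0778), without low-fat knockout replicate 1 (0.0658), 2 (0.0684) or 3 (0.0769), or without the arrays with Tnnt3 (-0.54, adjusted p = 0.0936).

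Il1rn, whose product occupies the interleukin-1 receptor without signalling, had the widest range of the members. Its brightest probe set read 10.89, 10.54, 10.56 and 10.77 in high-fat knockouts, against 6.27, 9.83, 7.06 and 9.15 in wild types on that diet. On the low fat diet it read 6.72, 6.31, 5.88 and 5.30 in knockout fat, against 4.57, 4.14, 3.55 and 4.46 in wild-type fat. The high-fat knockout arrays had an SD of 0.17 and the high-fat wild-type arrays an SD of 1.69, replicates 2 and 4 being the higher pair, as for Pycard. No group overlapped with the group it was tested against, but the ranges of high-fat wild types and low-fat knockouts did overlap.

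The high fat diet raised Il1rn by 4.63 in knockout fat (SE 0.58, adjusted p = 2.6e-05), which ranked 5 among the rises of 12078 genes tested. In wild-type fat it raised it by 3.90 (SE 0.58, 14.9-fold, adjusted p = 0.000104), which ranked 12. The mean of the 3 probe sets gave 4.18 in knockout and 2.45 in wild-type fat. That mean takes in probe sets that reach the filter only in high fat arrays, so it is given as a description with no test. Knockout was higher than wild type by 2.61 on the high fat diet (SE 0.58, 6.11-fold, adjusted p = 0.00653), ranked 22. It was higher by 1.88 on the low fat diet (SE 0.58, 3.67-fold, adjusted p = 0.0329), ranked 76. The low-fat wild-type values of this probe set, 3.55 to 4.57, lay around the filter. Sizes and ranks taken against them depend on the background correction. On both diets the difference between genotypes ended without the arrays with Tnnt3, at 2.24 (adjusted p = 0.0847) on the high fat diet and 1.61 (adjusted p = 0.257) on the low fat diet. The low-fat call also ended without low-fat knockout replicate 1 (adjusted p = 0.102), 2 (0.0799) or 3 (0.0552). It ended too without low-fat wild-type replicate 1 (0.0525) or 3 (0.083). The mean of the probe sets gave a genotype difference of 0.91 on the low fat diet, again as a description with no test.

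The 3 probe sets of Il1rn did not give the same picture at the low end. Probe set 1425663_at read 8.09, 7.46, 7.73 and 7.75 in high-fat knockouts, against 2.67, 5.87, 3.45 and 5.45 in high-fat wild types. Probe set 1423017_a_at read 4.86, 4.58, 4.94 and 5.32 in high-fat knockouts, against 2.33, 3.82, 2.54 and 3.44 in high-fat wild types. Both lay under 3 in every low fat array, where knockout and wild type differed by 0.75 and 0.10. On the high fat diet knockout exceeded wild type by 3.40 for 1425663_at and by 1.89 for 1423017_a_at. The high fat diet moved 1425663_at by 5.22 in knockout and 2.57 in wild-type fat, and 1423017_a_at by 2.67 in knockout and 0.89 in wild-type fat. Probe set 1423017_a_at reached a log2 of 4 only in the high-fat knockout arrays and 1425663_at only in high fat arrays, so passing the filter already required them to be high there. Their differences, taken against values under 4, depend on the background correction and are given as a description with no test.

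**Figure D2:**
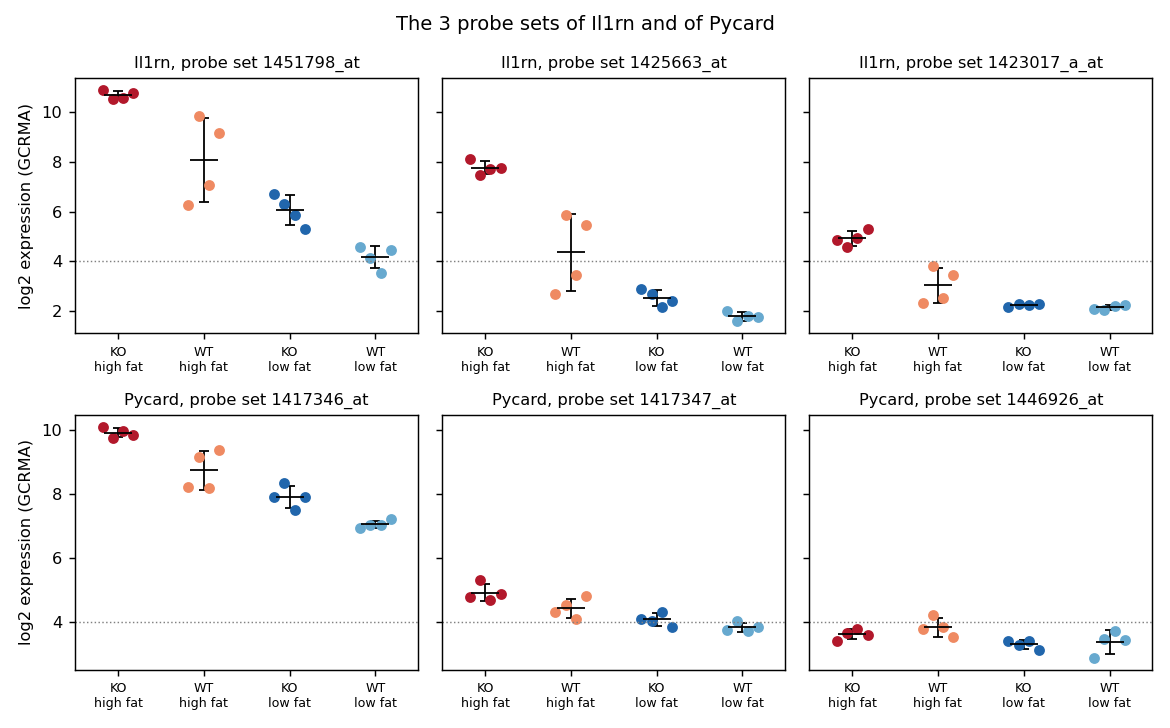
Log2 expression (GCRMA) by array of the 3 probe sets of Il1rn (top) and of Pycard (bottom), for KO (FABP4-Cre knockout) and WT (wild type) on each diet; lines are means, bars ± 1 SD (n = 4), and the dotted line is the filter at 4. All probe sets of Il1rn are highest in high-fat knockouts, and 1425663_at and 1423017_a_at lie under 3 in every low fat array.

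Counted over the 7 genes tested, the changes were as follows. With the high fat diet in knockout fat, 5 rose (Il1rn, Pycard, Naip2, Casp1 and Gsdmd) and Il18 fell, where 29.2% of all 12078 genes tested passed in either direction, 15.6% as higher and 13.5% as lower. In wild-type fat 4 rose (Il1rn, Pycard, Naip2 and Casp1), beside 35.6% of all genes in either direction and 20.5% as higher. Between knockout and wild type on the high fat diet 5 were higher (the same as for diet in knockout fat), beside 15.1% and 8.58% of all genes. On the low fat diet 3 were higher in knockout (Il1rn, Pycard and Naip2), beside 18.9% and 11.7%. The groups did not overlap for 5 of the 7 genes for diet in knockout fat (33.1% of all genes), 4 for diet in wild-type fat (30.8%), 5 for genotype on the high fat diet (26.1%) and 3 for genotype on the low fat diet (17.9%).

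The median change of the 7 genes was 0.93 for diet in knockout fat, beside -0.02 over all genes tested, and 0.43 for diet in wild-type fat, beside 0.04. For genotype it was 0.87 on the high fat diet, beside 0.00 over all genes, and 0.37 on the low fat diet, beside 0.04. The 4 comparisons share arrays, since each group serves in a diet comparison and in a genotype comparison. Fewer cells of a type and less RNA per cell cannot be told apart in bulk tissue, which holds for every change given here. The plot of changes shows them with their intervals.

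**Figure D3:**
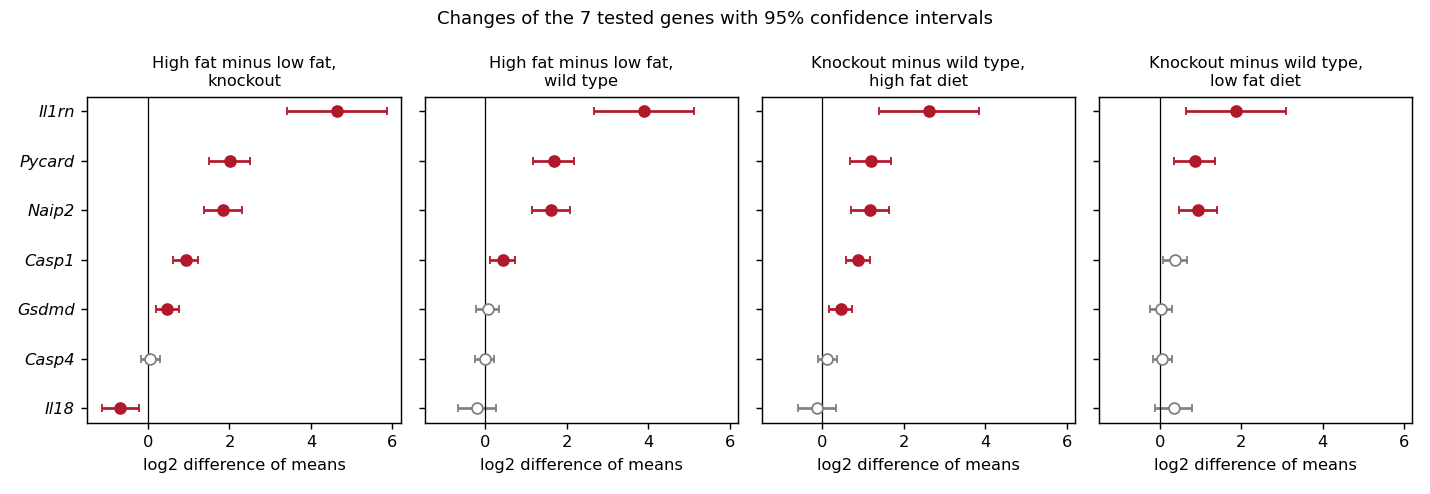
Differences of group means (log2) of the 7 genes tested, in 4 comparisons, with 95% confidence intervals from limma (4 arrays a group); filled red points passed an adjusted p of 0.05 over all genes tested, open grey points did not. Il1rn, Pycard and Naip2 lie right of 0 in all 4 panels, and Casp4 spans 0 in all.

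For the interaction of diet and genotype, which asks whether the diet change differs between genotypes, limma called 0 of the 7 genes, while 13% of all genes tested passed, and 2 of the 7 had an unadjusted p under 0.05. These were Casp1, whose rise with diet was larger in knockout fat by 0.50 (95% confidence interval 0.07 to 0.93, limma adjusted p = 0.113), and Gsdmd, by 0.42 (0.02 to 0.81, adjusted p = 0.15). Gsdmd passed without low-fat wild-type replicate 2 (0.52, adjusted p = 0.0399). For Pycard the interaction was 0.32 (-0.39 to 1.04), for Naip2 0.22 (-0.45 to 0.89), for Il18 -0.48 (-1.13 to 0.17) and for Il1rn 0.73 (-1.0 to 2.47). A diet change in Gsdmd or Il18 that passed in knockout and not in wild-type fat is therefore not shown to differ between the genotypes.

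Genes whose pattern over the 16 arrays was most like that of Casp1, Pycard and Il1rn were found by the root mean square difference of log2 values centred on each gene's mean. For Casp1 they were Chtf18 (0.17), the pseudogene Gpr137b-ps (0.17) and Mvp, the major vault protein gene (0.18), where the median gene differed by 0.59. For Pycard they were Pbk (0.22), the phosphatase gene Ptpn6 (0.25) and E2f8 (0.25), against a median of 1.13. For Il1rn they were Rgs1 (0.52), the coagulation factor gene F7 (0.53) and Atp6v0d2, a proton pump subunit gene (0.59), against a median of 2.55. The 3 genes were picked for likeness to Il1rn over arrays that include the high-fat wild types, so sharing its split there follows from the choice. Rgs1 read 6.79, 10.20, 7.72 and 9.97 in those 4 arrays, F7 read 3.96, 7.54, 5.04 and 7.01, and Atp6v0d2 read 6.77, 9.58, 7.67 and 9.57. This likeness is a description over 16 arrays that share their groups.

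Macrophage markers were counted in the same comparisons. All 14 macrophage markers with a probe set were tested, and none lay under a log2 of 4 in every array. Of these, 11 rose with the high fat diet in knockout fat (15.6% of all genes tested were higher), and 10 rose and 1, Mertk, fell in wild-type fat (20.5% higher). Between knockout and wild type 7 were higher on the high fat diet (8.58% of all genes) and 2 on the low fat diet, near the 11.7% of all genes. The median marker changed by 1.03, 0.99, 0.59 and 0.33 in these comparisons. The log2 of their summed level ran from 15.71 to 15.83 in high-fat knockouts and from 15.11 to 15.51 in high-fat wild types, and from 15.01 to 15.21 in low-fat knockouts and from 14.54 to 14.93 in low-fat wild types.

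Fcgr1, an antibody receptor gene of macrophages, rose with diet by 2.98 in knockout fat (adjusted p = 6.07e-06) and by 1.42 in wild-type fat (adjusted p = 0.00214), and was higher in knockout by 1.97 on the high fat diet (adjusted p = 0.000696). Adgre1, a macrophage surface receptor gene, was higher in knockout by 1.06 on the high fat diet (adjusted p = 0.00353) and by 1.01 on the low fat diet (adjusted p = 0.00379). In the high-fat wild-type arrays Cd68, a lysosomal marker, read 10.17, 11.76, 10.69 and 11.58, and Fcgr1 read 7.55, 8.95, 7.67 and 8.83. Replicates 2 and 4 were the higher pair for both genes, but not for every marker. In the same arrays C1qb read 13.63, 13.55, 13.61 and 13.49, and Aif1 read 7.41, 7.57, 7.32 and 7.29. The part of macrophage number in the changes of the inflammasome genes was not tested.

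Array by array, the median macrophage marker lay above the low-fat wild-type mean by 1.31 to 1.56 in high-fat knockouts, by 0.52 to 1.23 in high-fat wild types and by 0.21 to 0.66 in low-fat knockouts. Casp1 lay above its own low-fat wild-type mean by 1.13 to 1.58, by 0.32 to 0.53 and by 0.21 to 0.65 in the same groups. For Pycard these shifts were 2.70 to 3.04, 1.12 to 2.33 and 0.44 to 1.30, and for Naip2 they were 2.56 to 3.14, 1.39 to 2.01 and 0.63 to 1.5. For Il1rn, whose low-fat wild-type values lay around the filter, they were 6.36 to 6.71, 2.09 to 5.65 and 1.12 to 2.54. In every knockout and high fat array Il1rn, Pycard and Naip2 had shifted further than the median macrophage marker, except Naip2 in low-fat knockout replicate 2, where both shifts were 0.66. The markers themselves differed widely, their mean shift in high-fat knockouts running from -0.33 for Mertk to 3.39 for Fcgr1, against 2.86 for Pycard, 2.78 for Naip2 and 6.51 for Il1rn. Casp1 had shifted less than the marker in 3 of 4 high-fat knockout, 4 of 4 high-fat wild-type and 3 of 4 low-fat knockout arrays.

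**Figure D4:**
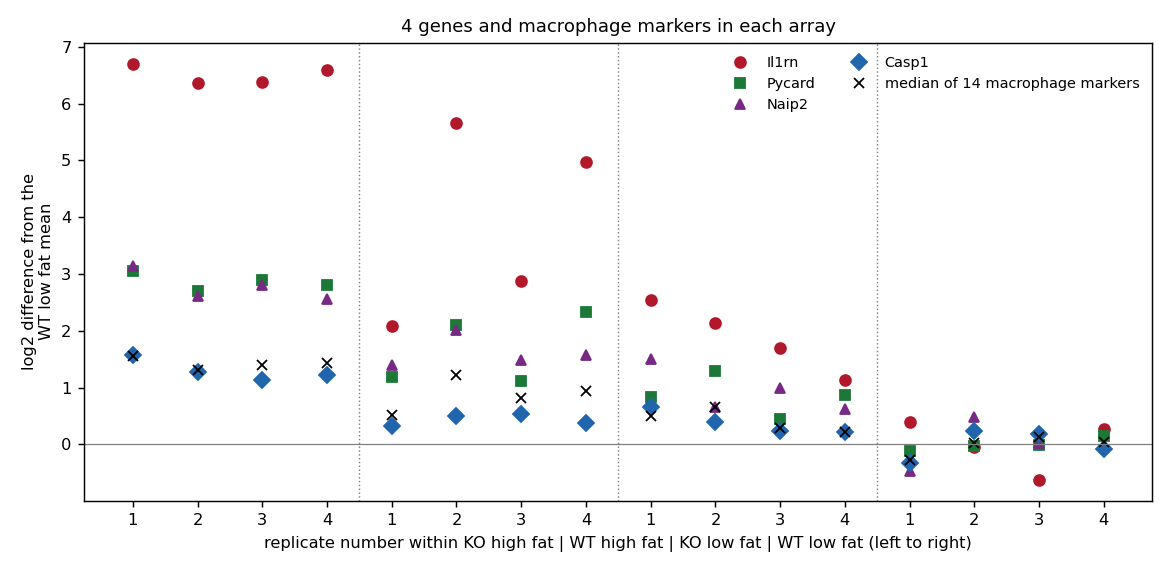
Log2 difference of Il1rn, Pycard, Naip2, Casp1 and the median of 14 macrophage markers from their own mean in low-fat wild types, for each of the 16 arrays (KO, FABP4-Cre knockout; WT, wild type). In high-fat wild types replicates 2 and 4 are higher than 1 and 3 for Il1rn, Pycard and the median of the markers, while Casp1 runs from 0.32 to 0.53.

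Markers of other cell types were counted too. Itgax, which encodes CD11c of dendritic cells and inflammatory macrophages, rose with diet by 2.74 in knockout fat (adjusted p = 9.65e-05) and by 4.18 in wild-type fat (adjusted p = 2.45e-06). The size of the change in wild-type fat depends on the background correction, since 3 of the 4 low-fat wild-type arrays lay under a log2 of 4. Of 6 dendritic cell markers tested, 2 rose and 2 fell with diet in knockout fat, where 15.6% of all genes were higher and 13.5% lower, and 5 rose in wild-type fat, where 20.5% were higher. Between knockout and wild type 1 was higher and 1 lower on the high fat diet, beside 15.1% of all genes in either direction. On the low fat diet 3 were higher in knockout, beside 11.7% of all genes as higher. Of 10 neutrophil markers on the array, 5 (Mpo, Ngp, Camp, Cxcr2 and Mmp8) lay under a log2 of 4 in every array and 3 (S100a8, S100a9 and Elane) were tested. With diet 1 rose in knockout fat, and 1 rose and 1 fell in wild-type fat, beside 29.2% and 35.6% of all genes in either direction. Between knockout and wild type 1 was higher on the high fat diet, beside 15.1% of all genes. On the low fat diet 1 was higher and 1 lower, beside 18.9%. With 3 markers tested, these counts are not read further. S100a8, a calcium-binding protein gene that macrophages also express, was higher in knockout by 2.39 on the high fat diet (adjusted p = 0.0014) and by 2.75 on the low fat diet (adjusted p = 0.000347). Elane, the neutrophil elastase gene, reached a log2 of 4 only in the low-fat wild-type arrays, so passing the filter already required it to be high there. It is the gene counted as having fallen with diet in wild-type fat and as lower in knockout on the low fat diet (-1.20). These counts of Elane are a description with no test, and S100a9 did not pass. Markers of mesothelium, the lining of fat pads, fell in 8 of 8 with the high fat diet in knockout fat, beside 13.5% of all genes. On the high fat diet 8 of 8 were lower in knockout than in wild type, beside 782 of 12078 genes tested. Bnc1, a mesothelial transcription factor gene, fell by 2.54 (adjusted p = 0.000384) and differed by -2.30 (adjusted p = 0.00233) in these comparisons. Krt19 and Upk1b of this list also stand among the epithelial markers. Both were highest in high-fat wild-type replicate 4, the array with high Upk1a, at 11.18 and 10.54. The part of these cell types in the results was not tested.

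Of 21 other sensor and regulator genes named, 17 had a probe set and 13 were tested. With the high fat diet 6 rose and 1 fell in knockout fat, beside 29.2% of all genes in either direction, and 6 rose and 1 fell in wild-type fat, beside 35.6%. Between knockout and wild type 3 were higher on the high fat diet and 3 on the low fat diet, beside 8.58% and 11.7% of all genes as higher. The median changes were 0.50, 0.54, 0.17 and 0.50, beside all-gene medians of -0.02, 0.04, 0.00 and 0.04. Naip5, whose mouse product senses bacterial flagellin, was higher in all 4 comparisons, by 1.17 (adjusted p = 0.00205) and 1.21 (adjusted p = 0.00136) for diet in knockout and wild-type fat. The genotype difference was 0.76 (adjusted p = 0.0483) on the high fat diet and 0.80 (adjusted p = 0.0336) on the low fat diet. Naip6 differed by 0.74 (adjusted p = 0.0402) and 0.97 (adjusted p = 0.00826) for diet in knockout and wild-type fat, and the uncertainty noted for Naip2 holds for Naip5 and Naip6.

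Panx1, a membrane channel gene for ATP release, rose with diet by 1.31 in knockout fat (adjusted p = 0.00017) and by 1.24 in wild-type fat (adjusted p = 0.000228). Aim2, the sensor gene for DNA in the cytosol, rose by 0.67 in knockout fat (adjusted p = 0.017) and by 0.54 in wild-type fat (adjusted p = 0.0418), and was higher in knockout on the high fat diet by 0.66 (adjusted p = 0.0317). Tnfaip3, which encodes A20, a brake on NF-kappa-B signalling, rose by 0.61 in knockout fat (adjusted p = 0.00727) and by 1.53 in wild-type fat (adjusted p = 4.1e-06). The difference of these changes was -0.92 (SE 0.22, adjusted p = 0.0125), and on the low fat diet Tnfaip3 was already higher in knockout by 1.08 (adjusted p = 0.000209). Its group means were 8.57 in high-fat knockouts and 8.41 in high-fat wild types, and 7.96 in low-fat knockouts and 6.87 in low-fat wild types. Brcc3, a deubiquitinase gene, fell by 0.51 in knockout fat (adjusted p = 0.00278) and by 0.34 in wild-type fat (adjusted p = 0.0271). Txnip, a stress-induced regulator, did not pass in any comparison, with diet differences of -0.08 in knockout and 0.03 in wild-type fat.

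Nlrp10, a member of the NLRP family without a ligand-sensing domain, had a larger rise with diet in knockout than in wild-type fat. It read 6.11, 5.63, 5.63 and 5.59 in high-fat knockouts, against 3.91, 4.36, 4.26 and 4.71 in high-fat wild types. In low-fat arrays it read 3.61, 3.78, 3.57 and 3.58 in knockout fat, against 4.12, 3.83, 3.57 and 4.25 in wild-type fat. All high-fat knockout arrays lay above all others, which overlapped. The diet change was 2.10 in knockout fat (SE 0.18, adjusted p = 1.15e-06) and 0.37 in wild-type fat (adjusted p = 0.12), and the interaction was 1.74 (SE 0.25, adjusted p = 0.000521). All 4 low-fat knockout arrays, 2 low-fat and 1 high-fat wild-type array lay under a log2 of 4, so these sizes depend on the background correction.

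Of 23 other ligand, receptor and adaptor genes of the interleukin-1 family, 17 had a probe set and 14 were tested. With diet 2 rose and 3 fell in knockout fat and 1 rose and 1 fell in wild-type fat, beside 29.2% and 35.6% of all genes in either direction, and the median changes were -0.08 and 0.16, beside -0.02 and 0.04. Between genotypes 1 was higher and 1 lower in knockout on the high fat diet, and 2 were higher on the low fat diet, beside 15.1% and 18.9% of all genes in either direction. Il1a, which encodes interleukin-1 alpha, was among the 3 that did not pass the filter. Il33, the alarmin interleukin-33 made by stromal and mesothelial cells, read 7.99, 8.78, 7.94 and 7.83 in high-fat knockouts, against 9.37, 9.25, 8.93 and 9.48 in wild types on that diet. In low-fat arrays it read 10.37, 9.94, 9.96 and 10.07 in knockout fat, against 10.04, 10.26, 9.06 and 9.93 in wild-type fat.

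The high-fat knockout arrays of Il33 lay below all others. Il33 fell by 1.95 with diet in knockout fat (SE 0.24, adjusted p = 2.58e-05), was lower in knockout than in wild type on the high fat diet (-1.12, SE 0.24, adjusted p = 0.00572), and had an interaction of -1.39 (SE 0.34, adjusted p = 0.0156). Mesothelial markers fell in the same arrays, and their part in the change of Il33 was not tested. Il18r1, a receptor chain for interleukin-18, also had an interaction below 0 (-0.92, SE 0.20, adjusted p = 0.00746). It fell by 0.59 with diet in knockout fat (adjusted p = 0.00519) and was higher in knockout on the low fat diet by 0.58 (adjusted p = 0.00932). Il1rap, the shared accessory chain of interleukin-1 family receptors, rose by 0.72 with diet in knockout fat (adjusted p = 0.0016) and was higher in knockout on the high fat diet by 0.50 (adjusted p = 0.0306). Il1r1, the signalling receptor for interleukin-1, did not pass, with diet differences of -0.33 in knockout and 0.99 in wild-type fat (adjusted p = 0.636 and 0.115).

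Among other caspase and pore genes, 13 were named, 10 had a probe set and 8 were tested. For diet 0 passed in knockout fat and 1 rose in wild-type fat, and limma called 0 in either comparison of genotypes, beside 29.2%, 35.6%, 15.1% and 18.9% of all genes. At an unadjusted p under 0.05, 2 passed for diet in knockout fat, 2 for diet in wild-type fat, 1 for genotype on the high fat diet and 2 on the low fat diet. The gene that rose was Casp8, the initiator of death receptor signalling, with 0.71 in wild-type fat (SE 0.21, adjusted p = 0.0138), and its difference in knockout fat was 0.31 (adjusted p = 0.29). Casp12, a further relative of the inflammatory caspases, had diet differences of -0.42 in knockout and 0.27 in wild-type fat (adjusted p = 0.166 and 0.353).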

How the data were processed

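Affymetrix mouse arrays measured white adipose RNA of 16 samples, grouped by genotype and diet from their titles. Each deposited value is a log2 expression level, which the authors computed per probe set. The tools named are GCRMA 2.20.0 and R 2.11.1, per the submitters' processing notes. GCRMA corrects background from probe sequence, so low values depend on that correction. Filters and batches of the authors were not given in the sources used here.

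Of 45037 probe sets, 34945 had 1 gene symbol, 932 several and 9160 none. Of the probe sets with 1 symbol, 34741 had a gene identifier found in the RefSeq gene table. The probe set with 1 symbol and the highest mean stood for its gene. Testing was restricted to genes reaching a log2 of 4 in 4 arrays or more, 12078 of 18193. All arrays entered 1 linear model of group means, fitted with limma 3.58.1 in R 4.3.3 (12 residual and 3.84 prior degrees of freedom). Adjusted p-values are two-sided Benjamini-Hochberg values over all genes tested, with a threshold of 0.05. A second fit tested all 25560 probe sets that passed the filter. The code was tested on simulated data.

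The members and the 11 other lists, with 154 entries of which 132 had a probe set, were chosen with earlier results of these data known. Named were all members, from each other list up to 4 genes with the smallest p among those past the threshold (not all are printed), and 3 genes most like each of Casp1, Pycard and Il1rn. Il1r1, Txnip, Casp12 and other values that did not pass were named after their values were seen, as was Brcc3 in wild type, which passed. Alternatives changed the filter, floor, samples fitted, variance model, array weights, scaling, probe sets of a gene, threshold and arrays included, and added the replicate number as a block. Replicate numbers were not taken as pairs, since deviations from the group mean correlated between -0.273 and 0.202 in 24 same-numbered pairs, with 8 over 0.1. Promoter sequences are RefSeq's (GRCm38.p6), and no other coordinates are printed because the sources name no build.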

Additional observations from a re-analysis of the deposited data

Results flagged for a closer look

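In each group of 4 arrays, the gap between the highest or lowest array and its nearest neighbour was divided by the range of the group. Of 52 groups checked over the 13 probe sets, 4 exceeded Dixon's 95% critical value, where chance gives about 1 in 20. In high-fat knockouts, Nlrp3 had a low array, replicate 1 at 2.90 with the others at 3.24 to 3.31 (ratio 0.849), all under the filter. In the same group Gsdmd had a high array, replicate 1 at 8.37 with the others at 8.19 to 8.21 (0.906). In low-fat wild types Gsdmd had a low array, replicate 2 at 7.40 with the others at 7.82 to 7.88 (0.868). In low-fat knockouts Il18 had a low array, replicate 4 at 8.66 with the others at 9.31 to 9.37 (0.92).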

How the results depend on the processing

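Of the 7 genes tested, those past the threshold numbered 6 for diet in knockout fat, 4 for diet in wild-type fat, 5 for genotype on the high fat diet, 3 for genotype on the low fat diet and 0 for the interaction. Leaving out 1 array at a time gave 5 to 6, 3 to 4, 4 to 5, 1 to 4 and 0 to 1. The count for genotype on the low fat diet was 1 with the mean of the probe sets, with the second brightest probe set and at an adjusted p of 0.01, 1 without low-fat knockout replicate 2 or low-fat wild-type replicate 1, and 0 without the 5 arrays with Tnnt3, where genotype on the high fat diet gave 3. With the second brightest probe set Pycard did not pass on the high fat diet (adjusted p = 0.0586), and the count for the interaction was 1, Il1rn (2.65). Both the mean and the second brightest probe set of Il1rn draw on probe sets that pass the filter only through high fat arrays. The part of Il1rn in the counts of these settings is therefore a description with no test. With the replicate number as a block the counts were 6, 4, 4, 3 and 0, the only member lost being Gsdmd for genotype on the high fat diet (0.45, adjusted p = 0.0548). Without the arrays with Tnnt3, 3, 3, 3 and 2 arrays remained in the 4 groups; the cause of the lost calls was not tested. Changes of sign were all of differences that passed in neither setting. Casp4 became -0.0076 for diet in knockout fat with array weights and -0.060 for genotype on the low fat diet without the arrays with Tnnt3. With 1 array left out it ran from -0.0021 to 0.13 for diet in knockout fat, from -0.050 to 0.029 for diet in wild-type fat and from -0.0041 to 0.10 for genotype on the low fat diet. Gsdmd became -0.026 and -0.051 for diet in wild-type fat, and -0.022 and -0.043 for genotype on the low fat diet, with centred and quantile-normalized arrays, and with 1 array left out ran from -0.050 to 0.13 and from -0.076 to 0.083. Without the arrays with Tnnt3, Il18 became 0.0033 and -0.045 for genotype on the high and low fat diet and 0.048 for the interaction, against -0.14, 0.34 and -0.48 with all arrays. Among all genes, calls for diet in wild-type fat were 2472 higher and 1832 lower, against 2050 and 2552 with centred and 2062 and 2539 with quantile-normalized arrays. Such calls for low-fat genotype were 1410 and 874, against 1151 and 1274 and 1123 and 1281, and for the interaction 618 and 951, against 853 and 868 and 989 and 885. Calls among all genes numbered 3523, 4304, 1818, 2284 and 1569, in the order of the first sentence. They were 5354, 3424 and 2481 for diet in knockout, genotype on the high fat diet and interaction with array weights, and 1292 for genotype on the low fat diet with only the arrays compared. At an adjusted p of 0.01 they were 2059, 2733, 837, 1060 and 576, without the arrays with Tnnt3 2341, 2567, 814, 845 and 424, and over all probe sets 7071, 9059, 3184, 4619 and 2898. They were 1084 and 1204 for genotype on the high fat diet without high-fat knockout replicate 1 and high-fat wild-type replicate 3, 1426 and 1515 for genotype on the low fat diet without low-fat knockout replicates 1 and 2, and 2382 for the interaction without low-fat wild-type replicate 2.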

Other observations

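Lymphocyte markers included genes whose diet change differed between the genotypes. Cd2, a T and natural killer cell adhesion gene, had group means of 5.79 in high-fat knockouts and 6.90 in high-fat wild types, and of 6.63 in low-fat knockouts and 5.70 in low-fat wild types. It rose with diet by 1.21 in wild-type fat (adjusted p = 0.000257), and its interaction of diet and genotype was -2.06 (SE 0.28, adjusted p = 0.000371). Gzma, a granzyme of cytotoxic lymphocytes, had an interaction of -1.91 (adjusted p = 0.0316). The dendritic cell gene Cd209a had one of -2.79 (adjusted p = 0.00555), with means of 4.90 in high-fat knockouts and 6.46 in high-fat wild types, and of 6.10 in low-fat knockouts and 4.87 in low-fat wild types. Of 10 lymphocyte markers tested, 1 fell with diet in knockout fat (13.5% of all genes were lower) and 3 rose in wild-type fat (20.5% higher). Between knockout and wild type 1 was lower on the high fat diet, beside 15.1% of all genes in either direction. On the low fat diet 2 were higher, beside 11.7% of all genes as higher. For the interaction 2 passed, both below 0, beside 13% of all genes.

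Among adipocyte markers Lep, the leptin gene, rose with diet by 1.49 in wild-type fat (adjusted p = 8.9e-06) and had an interaction of -1.15 (adjusted p = 0.00524). Pparg, the transcription factor gene of fat cell identity, fell by 0.98 with diet in wild-type fat (adjusted p = 0.000155). The log2 of the summed adipocyte markers ran from 15.59 to 15.86 in high-fat knockouts and from 15.76 to 15.94 in high-fat wild types, and from 15.76 to 15.96 in low-fat knockouts and from 15.85 to 15.92 in low-fat wild types. Of 8 adipocyte markers tested, 2 fell with diet in knockout fat, and 1 rose and 2 fell in wild-type fat, near the 29.2% and 35.6% of all genes that passed in either direction. Of 5 epithelial markers tested, 2 fell with diet in knockout fat, beside 13.5% of all genes. In high-fat knockouts 3 were lower than in high-fat wild types, beside 782 of 12078 genes tested. The high-fat wild types include replicate 4, where the urothelial gene Upk1a stood at 11.71. Krt18 read 12.73 there, against 7.44 to 8.28 in the other arrays of that group. Of 10 skeletal muscle markers, 1 rose with diet in knockout fat, beside 15.6% of all genes.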
